A study of Mus musculus with 6 samples.

Results

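The posterior Hoxa genes are Hoxa9, Hoxa10, Hoxa11 and Hoxa13, the members of the Hoxa cluster that lie toward its 5′ end. An accessible region was counted to a gene when the transcription start site (TSS) nearest to its strongest summit, among all protein-coding genes of GENCODE M21, belonged to that gene and lay at most 50 kb away. By this rule 13 regions were found, 5 of 82885 in the parent list and 8 of 107480 in the deletion list, or 13 of 190365 in all. The lists come from an assay for transposase-accessible chromatin (ATAC-seq), in which a transposase cuts open DNA and the cut fragments are sequenced. The cells were neural stem and progenitor cells (NSPCs) derived from mouse embryonic stem cells of a 129S1/Cast F1 hybrid and grown in N2B27 medium with EGF and bFGF. The parent line (clone 5B) carries Sox2-mCherry on the 129 allele and no deletion. The deletion line (clone 47D) carries the same reporter and lacks the enhancer interval from SRR2 to SRR18 downstream of Sox2 on both alleles (ΔSRR2–18). Each genotype was 1 clone, so clone and genotype cannot be told apart. Each list was pooled over 3 cultures, so no value below has an error between cultures and no difference between genotypes has a test.

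Hox genes encode homeodomain transcription factors that give cells their position along the body axis. They lie in 4 clusters, and their order along the chromosome follows the order in which they are used from head to tail. The posterior genes act in the trunk, tail, limb buds and urogenital tract. In tissue that does not use them they are held closed by Polycomb complexes, which place a repressive histone mark over whole clusters. Hoxa9 and Hoxa10 also serve in blood stem cells, Hoxa11 and Hoxa10 in the uterus, and Hoxa13 in the digits and hindgut.

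All 4 genes are transcribed from the minus strand of chromosome 6 (mm10). In chromosome order they are Hoxa9 (ENSMUSG00000038227.15, chr6:52223100-52231089), Hoxa10 (ENSMUSG00000000938.11, chr6:52231197-52240854), Hoxa11 (ENSMUSG00000038210.10, chr6:52242106-52245810) and Hoxa13 (ENSMUSG00000038203.18, chr6:52257694-52260880). The stretch also holds the microRNA gene Mir196b (chr6:52230081-52230165), inside the annotated span of Hoxa9, the antisense non-coding RNA Hoxa11os (chr6:52244393-52249799) and, beyond Hoxa13, the non-coding RNA Hottip (chr6:52262775-52267603). Every position from chr6:52222451 to chr6:52287189, a stretch of 64.7 kb, has a posterior Hoxa TSS as its nearest. Regions covered 4681 bp of it in the parent list, or 7.23%, and 5973 bp in the deletion list, or 9.23%. No member lay close to the 50 kb limit, the farthest being 9.80 kb from its TSS. The next regions outward were nearest to Hoxa7 (chr6:52221303-52222313 in the parent list) on one side and to Evx1 (chr6:52290939-52291644 in the deletion list) on the other.

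The sequences at the summits of 5 loci are shown: the pair of regions that only the deletion list held at Hoxa11, and the shared regions beside Mir196b, upstream of Hoxa13 and beyond Hottip. Summit sequences of the Hoxa10 regions and of the Hoxa9 region in the deletion list alone are not shown. They were read from the plus strand of GRCm38, 5′ to 3′. Capitals mark the 5 bases centred on a summit, once for the deletion list at Hoxa11 and once for each genotype at the shared regions.
Hoxa11 at chr6:52246640-52246760, deletion list alone: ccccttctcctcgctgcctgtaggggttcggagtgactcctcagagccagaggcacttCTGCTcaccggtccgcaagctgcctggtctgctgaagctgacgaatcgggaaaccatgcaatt
Hoxa11 at chr6:52253032-52253152, deletion list alone: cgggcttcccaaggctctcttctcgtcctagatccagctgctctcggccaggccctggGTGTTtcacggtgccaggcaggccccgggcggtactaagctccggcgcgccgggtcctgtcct
Hoxa9 at chr6:52230529-52230790, shared: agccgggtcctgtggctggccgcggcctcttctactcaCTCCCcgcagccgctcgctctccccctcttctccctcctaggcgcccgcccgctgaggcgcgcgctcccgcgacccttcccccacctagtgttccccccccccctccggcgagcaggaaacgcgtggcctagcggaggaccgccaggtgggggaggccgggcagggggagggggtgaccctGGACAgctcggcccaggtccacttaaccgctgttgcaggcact
Hoxa13 at chr6:52260881-52261013, shared: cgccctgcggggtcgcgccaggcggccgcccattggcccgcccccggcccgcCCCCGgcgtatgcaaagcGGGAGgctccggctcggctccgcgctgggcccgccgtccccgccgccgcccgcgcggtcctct
Hoxa13 at chr6:52270598-52270715, shared: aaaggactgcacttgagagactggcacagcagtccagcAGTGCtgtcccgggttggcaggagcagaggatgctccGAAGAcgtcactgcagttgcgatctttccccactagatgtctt

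The stretch upstream of Hoxa13 is the richest in CpG, with 24 CpG dinucleotides in 133 bases and 84.2% G and C. The stretch beyond Hottip is the poorest, with 4 CpG in 118 bases and 55.9% G and C.

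For scale, the lowest local background in each list, which is the genome-wide mean of reads at a position, was 38.8 reads for the parent and 19.7 for the deletion line, so the parent data were 1.98 times as deep. Levels are therefore given as summit reads over that mean, and a rank of top 10% means that 10% of the regions of the same list were as strong or stronger. Within the deleted interval next to Sox2 the parent list held 4 regions and the deletion list 0. All 8 neural progenitor genes examined (Nes, Sox1, Sox2, Pax6, Vim, Msi1, Fabp7 and Slc1a3) had a region within 1 kb of a TSS in both lists. Of 4 pluripotency genes only Esrrb had one in either list, and Pou5f1, Nanog and Zfp42 had none.

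All 5 parent regions overlapped a deletion region by at least 1 bp, and 3 of the 8 deletion regions overlapped no parent region. These 3 lay at Hoxa9 (1) and Hoxa11 (2), while Hoxa10 and Hoxa13 had 2 regions each in both lists. Over all regions at most 50 kb from a TSS, 45.0% of parent regions and 53.0% of deletion regions had no counterpart (52.3% and 63.1% with more distant regions included). The posterior Hoxa share of regions seen in the deletion list alone, 37.5% (3 of 8, exact 95% interval 8.52% to 75.5%, counting error only), was not above the background. The parent count, 0 of 5, allows a share of up to 60.0% (3 counts of the total), or 52.2% by the exact 95% interval. With lists of equal length the counts turned to 2 parent-only regions of 5 and 1 deletion-only region of 4. Close to promoters the background is lower. Within 1 kb of a TSS, 14.0% of all deletion regions were absent from the parent list, against 2 of 4 at the posterior Hoxa genes, and 8.91% of all parent regions were absent from the deletion list, against 0 of 2. From 1 to 50 kb the background shares were 64.5% for deletion regions and 57.2% for parent regions, against 1 of 4 and 0 of 3 here. The exact interval of the 2 of 4 deletion regions within 1 kb was 6.76% to 93.2%, and that of the 1 of 4 farther out 0.631% to 80.6%. Both include the background share.

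Hoxa9 had 1 region in the parent list and 2 in the deletion list. With lists of equal length the counts were instead 1 and 0. The region present in both main lists lay inside the annotated span of Hoxa9, upstream of both TSSs of its basic transcripts and outside every transcript of the basic annotation (chr6:52230284-52231003 in the parent, chr6:52230466-52231003 in the deletion list). Its parent summit, 3.20 kb upstream of a Hoxa9 TSS, held 188 reads, or 4.84 times the genome-wide mean. The deletion summit, 3.38 kb upstream of the same TSS, held 241 reads, or 12.3 times the mean. Each list also had a summit close to the other list's strongest, with 169 reads in the parent and 242 in the deletion list. It was among the weaker regions of the parent list (top 95.4% by reads) and stood higher in the deletion list (top 66.9%).

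This region also lies just upstream of Mir196b, 404 bp (parent summit) and 585 bp (deletion summit) from the 5′ end of the annotated hairpin. The miRNA is known to pair with transcripts of several Hox genes, Hoxb8 among them. Its mature arms are shown with the seed, bases 2 to 8, in capitals, as RefSeq gives them for GRCm38.p6.
mmu-miR-196b-5p (chr6:52230129-52230150): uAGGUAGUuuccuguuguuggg
mmu-miR-196b-3p (chr6:52230094-52230115): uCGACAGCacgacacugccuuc
The files measure open chromatin and hold no level of the miRNA itself.

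The other Hoxa9 region was in the deletion list alone (chr6:52225779-52226378). Its summit was 36 bp inside the TSS, in the 5′ UTR, with 305 reads, or 15.5 times the genome-wide mean. Fold enrichment over the local background was only 3.65, near the bottom of the list (top 96.7%), and the local background there was itself 4.22 times the genome-wide mean. By reads the region stood close to the middle (top 56.4%). Of all parent regions, 54.1% reached 15.5 times the mean or more.

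Hoxa10 had 2 regions in each list. The stronger one covered the upstream promoter, from which the longer transcript starts (chr6:52239718-52240969 in the parent, chr6:52239883-52240901 in the deletion list). Its summits were 9 bp apart, 299 bp and 290 bp inside the TSS, in the 5′ UTR of Hoxa10. The parent summit held 438 reads, 11.3 times the mean, and the deletion summit 571 reads, 29.0 times the mean. In rank it was in the top 65.7% of the parent list and the top 31.7% of the deletion list by reads, and in the top 44.0% and 21.3% by fold enrichment. It was the strongest of the 8 deletion regions on reads, fold enrichment and −log10 p, the last of which was 478.

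The weaker Hoxa10 region lay 2.24 kb (parent) and 2.26 kb (deletion) downstream of the second Hoxa10 TSS, in a coding exon (chr6:52232563-52233281 and chr6:52232563-52232857). It held 168 reads in the parent and 184 in the deletion list, or 4.33 and 9.36 times the mean. Both ranked low, in the top 97.8% and 79.2% by reads. Only 41.0% of the parent interval was covered by the deletion interval, and neither genotype's longer optimal list held this region. In its place both optimal lists held a region nearer to the second TSS (chr6:52233887-52234661 in the parent, chr6:52233877-52234662 in the deletion list), with 136 and 153 summit reads.

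Hoxa11 had no region in the parent list and 2 in the deletion list. The nearer one (chr6:52246392-52247026) had its summit 890 bp upstream of the Hoxa11 TSS, within an exon of Hoxa11os, with 229 reads, 11.6 times the genome-wide mean, and a fold enrichment of 6.99. It ranked in the top 69.3% to 73.9% of the deletion list on the 3 measures. Of all parent regions, 64.5% reached 11.6 times the mean, while 29460 were weaker. The farther one (chr6:52252594-52253330) was intergenic, 7.28 kb upstream of Hoxa11 and 7.71 kb from the nearest Hoxa13 TSS. It held 107 reads in its strongest of 3 summits, 5.44 times the mean, and was close to the weakest of the whole list (top 99.6% by −log10 p, IDR score 547 where the lowest kept was 540). Neither overlapped a region of the parent's optimal list.

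Hoxa13 had 2 regions in each list, and they were the strongest posterior Hoxa regions of the parent. The promoter region (chr6:52260008-52261295 in the parent, chr6:52259830-52261329 in the deletion list) had its summit 55 bp and 73 bp upstream of the TSS. It held 1401 reads in the parent, 36.1 times the mean, and 368 in the deletion list, 18.7 times the mean. The parent region was in the top 29.1% by reads and the deletion region in the top 48.3%. The distal region (chr6:52270143-52270844 and chr6:52270298-52270946) was intergenic, 9.76 kb and 9.80 kb upstream, and lay beyond the far end of Hottip. It held 1032 reads in the parent, 26.6 times the mean, and 214 in the deletion list, 10.9 times the mean. Its fold enrichment of 21.6 in the parent was in the top 6.31% of the list, the highest rank of any posterior Hoxa region, against 10.4, the top 50.3%, in the deletion list.

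**Figure D1:**
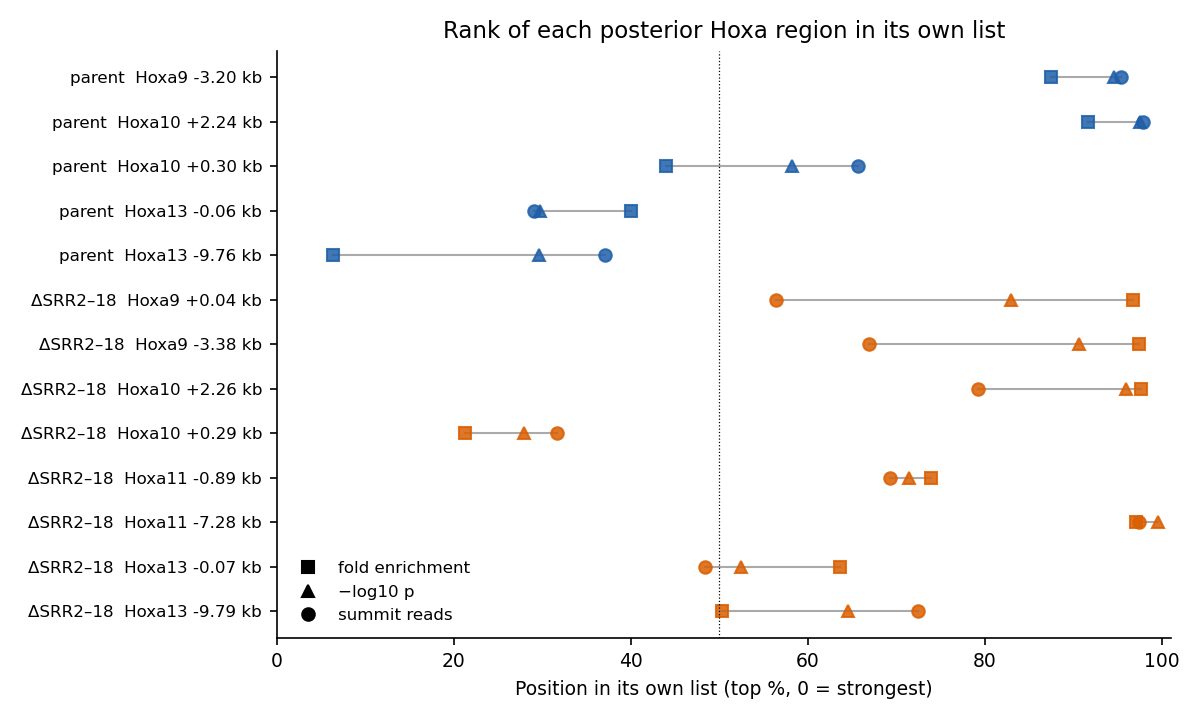
Rank of each of the 13 posterior Hoxa regions within its own list by fold enrichment, −log10 p and summit reads (x axis, top percent, 0 is the strongest; minus distances on the y axis are upstream of the TSS). In the parent list only the Hoxa13 regions are in the top 50% by reads, and in the deletion list only the Hoxa10 promoter and the Hoxa13 promoter are.

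By summit reads, the top 50% of their own list held 2 of 5 parent regions, both at Hoxa13, and 2 of 8 deletion regions, at the promoters of Hoxa10 and Hoxa13. The exact 95% intervals of these shares, 5.27% to 85.3% and 3.19% to 65.1%, both include an even split. The median rank by reads was the top 65.7% in the parent and the top 68.1% in the deletion list. By fold enrichment the medians were farther apart, the top 44.0% and the top 85.3%.

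The 5 shared regions were then compared directly, as summit reads in the deletion line over the parent after each was divided by its genome-wide mean. Over all 40114 overlapping pairs the median of this log2 ratio was −0.24, so values are also given relative to it. At the Hoxa9 region the ratio was 2.53-fold, a log2 difference of 1.34 (95% counting interval 1.07 to 1.62), or 1.58 relative to all pairs. At the Hoxa10 exon it was 2.16-fold, 1.11 in log2 (0.81 to 1.42) and 1.35 relative to all pairs. At the Hoxa10 promoter it was 2.58-fold, 1.37 in log2 (1.19 to 1.54) and 1.60 relative to all pairs. Hoxa13 went the other way. At its promoter the parent was 1.93-fold higher, a log2 difference of −0.95 (−1.11 to −0.78), or −0.71 relative to all pairs. At the distal region the parent was 2.44-fold higher, −1.29 in log2 (−1.50 to −1.07), or −1.05 relative to all pairs. The counting intervals exclude 0 in all 5 pairs, but they hold no variation between cultures.

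Relative to all pairs, 3 of the 5 were at least 2-fold higher in the deletion line, where 19.4% of all pairs were, and 1 was at least 2-fold lower, where 11.8% of all pairs were. None was extreme among the pairs. The log2 ratio was exceeded by 12.1% of all pairs for the Hoxa9 region, 14.5% for the Hoxa10 exon and 11.9% for the Hoxa10 promoter, while 17.8% of pairs lay below the Hoxa13 promoter and 11.0% below the distal Hoxa13 region.

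The local background, an estimate from the reads in the surrounding window that includes those of the region itself, moved the same way at each pair. At the Hoxa9 region it was 1.04 times the genome-wide mean in the parent and 3.51 in the deletion line, at the Hoxa10 exon 1.05 and 2.74, and at the Hoxa10 promoter 1.00 and 1.67. Around the Hoxa13 promoter it was 3.02 in the parent and 2.19 in the deletion line, and around the distal region 1.21 and 1.00. A value of 1.00 is the lowest that this measure can take. At the distal region the log2 change was near the middle of all pairs, at −0.12 relative to them, with 56.1% of pairs higher. Because fold enrichment divides by this background, the Hoxa9 region and the Hoxa10 exon had more depth-scaled reads in the deletion line but a lower fold enrichment (3.46 against 4.54, and 3.37 against 4.03). At the Hoxa10 promoter (16.9 against 11.0) and at both Hoxa13 regions, reads and fold enrichment moved in 1 direction.

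**Figure D2:**
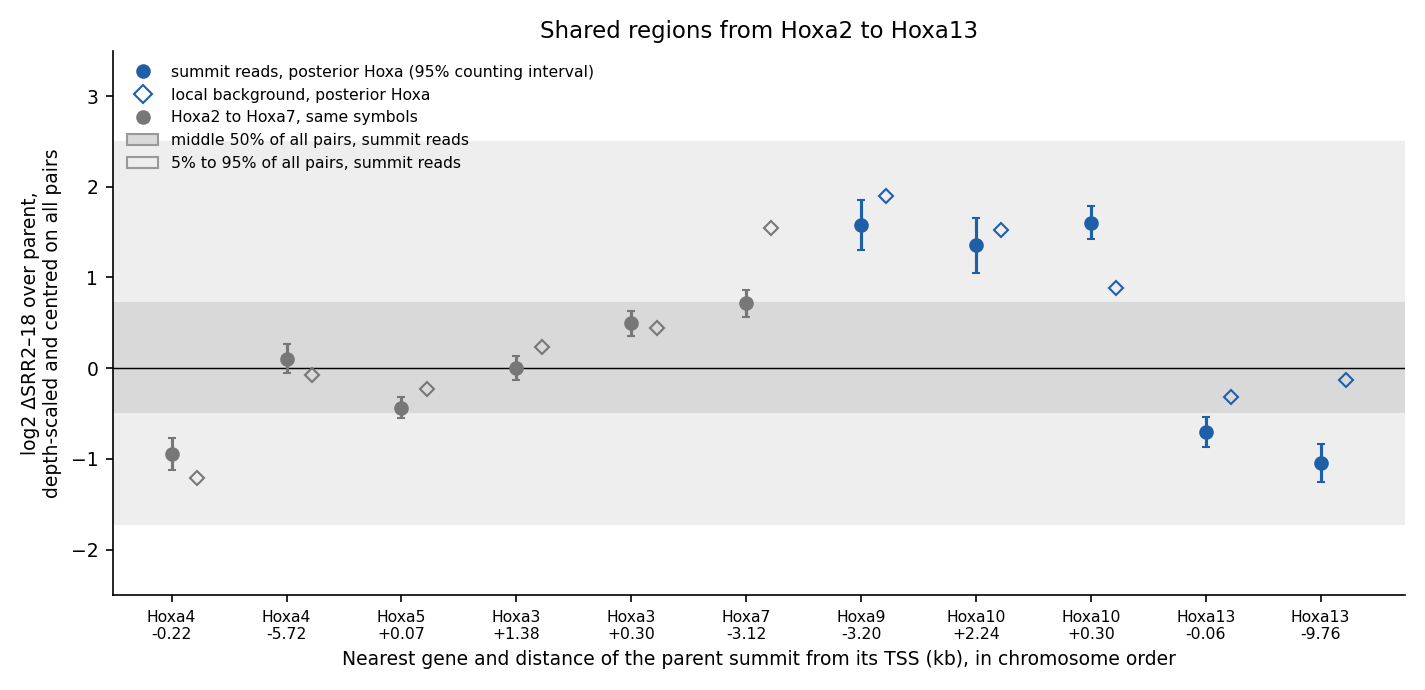
Log2 ratio of ΔSRR2–18 over parent for the shared regions at Hoxa2 to Hoxa13, in chromosome order, depth-scaled and centred on the median of all 40114 pairs (circles, summit reads with 95% counting intervals; diamonds, local background; bands, the middle 50% and the 5% to 95% range of summit reads over all pairs). The Hoxa9 and Hoxa10 circles lie between 1.35 and 1.60 and the Hoxa13 circles at −0.71 and −1.05.

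Read along the cluster, the 6 shared regions counted to Hoxa2 to Hoxa7 had a median of 0.05 relative to all pairs and ran from −0.95 to 0.72, with 0 at least 2-fold higher and 0 at least 2-fold lower. The one nearest to the posterior genes, 3.12 kb upstream of a Hoxa7 TSS, was at 0.72, with its local background at 1.54 relative to all pairs. The change from higher to lower fell between the Hoxa10 promoter and the Hoxa13 promoter, a stretch in which the only regions of either list were the Hoxa11 regions of the deletion line.

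The anterior genes had regions in either list alone. At Hoxa2 to Hoxa7 the parent list had 12 regions, 6 of them absent from the deletion list, and the deletion list 7, 2 of them absent from the parent list. Hoxa2 had 3 regions in the parent list and 0 in the deletion list. At the posterior Hoxa genes the parent list had 0 regions that the deletion list lacked, and 2 with lists of equal length. The posterior paralogues in the other clusters (12 genes of Hoxb, Hoxc and Hoxd) had 10 parent regions, 1 of them parent-only, and 29 deletion regions, 19 of them (65.5%) deletion-only. Over all regions at most 50 kb from a TSS, 45.0% of parent and 53.0% of deletion regions were in 1 list alone. From 1 to 50 kb the deletion share was 64.5%. Of the 12 paralogues, 5 had a region in the deletion list and none in the parent list, as Hoxa11 did: Hoxb13, Hoxc11, Hoxc12, Hoxc13 and Hoxd9. Among the 38 Hox genes counted, 8 had that pattern, and Hoxb7 and Hoxc6 are not posterior genes. The share of all genes with that pattern was not counted, and the deletion list is the longer one. These counts are descriptions, since each list is a single pool.

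**Figure D3:**
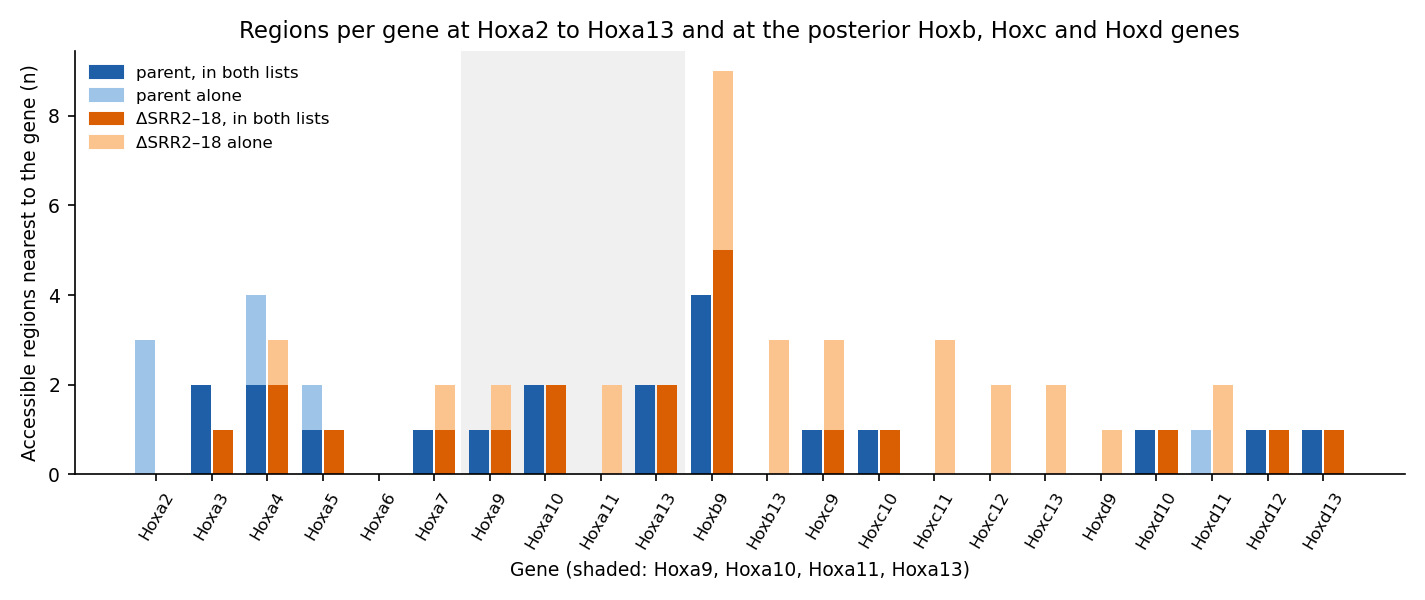
Number of accessible regions nearest to each gene from Hoxa2 to Hoxa13 and to each posterior gene of the other clusters, for parent (left bar) and ΔSRR2–18 (right bar), split into regions in both lists and in that list alone. Hoxa10 and Hoxa13 have 2 shared regions in each list, and Hoxa11 has 2 in the deletion list alone.

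Paralogues of Hoxa10, Hoxa13 and Hoxa9 that had a shared region are given beside them, each pair being a single pooled value with no test. Relative to all pairs, the region 207 bp upstream of Hoxc10 was at 2.00 and the region 141 bp upstream of Hoxd10 at 1.49, beside 1.60 at the Hoxa10 promoter. The region 144 bp inside Hoxd13 was at −0.50, beside −0.71 at the Hoxa13 promoter. In group 9, the 5 pairs at Hoxb9 came from 4 parent regions. They ran from 0.34 (36.3 kb upstream of the TSS) to 3.84 (11.0 kb upstream). The pair at Hoxc9, 5.01 kb inside the TSS, was at 0.34, beside 1.58 at Hoxa9, 3.20 kb upstream. These group 9 sites were not matched for distance from the TSS.

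Genes were also compared by their counts of shared, parent-only and deletion-only regions, with shared regions counted in the parent list. The Hox gene outside the 4 most like Hoxa9 was Hoxa7, with the same counts (1, 0 and 1). Hoxb4 and Hoxb5 followed at a summed difference of 1. Hoxa10 and Hoxa13 both had 2, 0 and 0, as did Hoxa3, followed at a difference of 1 by Hoxb4 and Hoxb6. In the deletion list, however, Hoxa3 had 1 shared region and Hoxb4 had 4, against 2 each at Hoxa10 and Hoxa13. Hoxa11 had 0, 0 and 2, as did Hoxb7, Hoxc12 and Hoxc13. Such counts are common: of 21924 protein-coding genes, 917 outside the 4 matched Hoxa9, 611 matched Hoxa10 and Hoxa13, and 288 matched Hoxa11.

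The summits were searched on both strands, within 100 bp (a window of 201 bp), for 6 motifs: the CTCF consensus, AP-1 (TGANTCA), SOX (AACAATG), HOX-PBX (TGATTNAT, which can overlap AP-1), a caudal motif bound by CDX and posterior HOX proteins (TTTATGG) and a HOX13-type motif (TTTACGA). None of the 13 summit windows held any of them. A count of 0 allows a share (3 counts of the total) of up to 60.0% of the 5 parent regions and 37.5% of the 8 deletion regions. Among all regions the shares with each motif were 4.48% in the parent and 2.87% in the deletion list for CTCF, 7.28% and 37.9% for AP-1, 4.23% and 3.40% for SOX, 2.16% and 7.60% for HOX-PBX, 1.56% and 3.09% for the caudal motif and 0.250% and 0.382% for the HOX13-type motif. The AP-1 share was the highest of the 6 in both lists, and these letters were at no posterior Hoxa summit of these lists. The shares cover all regions of a list. Within 1 kb of a TSS lay 13835 of 82885 parent regions and 14692 of 107480 deletion regions. At the posterior Hoxa genes it was 2 of 5 and 4 of 8, and no motif share was taken for regions near a TSS.

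Over the whole intervals, 4 matches were found. The Hoxa10 promoter region held 1 AP-1, 1 SOX and 1 HOX13-type match, the last in the 5′ UTR, and the farther Hoxa11 region held 1 caudal match 285 bp from its summit. The AP-1 match at Hoxa10 and the caudal match at Hoxa11 are shown with 11 bases on either side, plus strand of GRCm38, the match in capitals.
AP-1 at Hoxa10, chr6:52240280-52240286: gccacttacctTGACTCAtttcagaaatc
Caudal at Hoxa11, chr6:52252804-52252810: aggacttgaccTTTATGGtggaaagagcg

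The summit windows were richer in G and C at the median than all regions of the same list. Their median was 59.7% in the parent and 61.2% in the deletion list, against 52.2% and 48.3% over all regions of each list. CpG dinucleotides numbered 13 and 13.5 per window at the median, against 3 and 2. The comparison was not matched for distance to a TSS, and shared loci were counted in both lists. The lowest values were at the distal Hoxa13 region, with 52.7% G and C and 6 CpG, and the highest at the Hoxa13 promoter of the parent, with 84.6% and 37. The Hoxa13 promoter and the distal Hoxa13 region thus stood at opposite ends in base composition. Both had fewer depth-scaled reads in the deletion line, and a relation to base composition was not tested.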

How the data were processed

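ATAC-seq peak lists of parent and ΔSRR2–18 NSPCs were used, 3 cultures per genotype (30000 cells each per the labels). The authors aligned reads to mm10, called peaks with MACS2 in the ENCODE pipeline and kept peaks reproducible between cultures by IDR, pooling the cultures. The deposited columns hold the IDR score, fold enrichment (a ratio over local background), −log10 p, −log10 q (not used) and the summit offset. deepTools is named in the submitters' processing notes. The conservative lists (134705 and 168170 peaks) were used, and the optimal lists as an alternative.

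Peaks sharing an interval were taken as 1 region. Reads and local background at each summit were solved from fold enrichment and −log10 p (pseudocount 1); at least 99.999% of values came out whole within 0.05. Reads from repeated amplification are not independent molecules, so counting intervals cover counting error only. The scripts were tested on simulated data. Genes were named in full, the Hox genes most alike by summed difference of region counts, ties alphabetical. One gene of the cluster is not reported here. Genes, lists and motifs were chosen with earlier results of these data known. Alternatives were other lists, list lengths, overlaps, distances and TSS sets. Python 3.11.15, numpy 2.4.6, pandas 2.3.3 and scipy 1.17.1 were used.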

Additional observations from a re-analysis of the deposited data

Results flagged for a closer look

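A region near Hoxa13 was in the optimal list of the deletion line but in neither parent list and not in the conservative list used above (chr6:52275498-52275983). It was intergenic, 14.8 kb upstream of the Hoxa13 TSS, farther out than the distal region, with a fold enrichment of 6.73, 138 summit reads (7.02 times the genome-wide mean) and an IDR score of 599. It was singled out because it is a signal outside the lists compared in the report, as are the Hoxa10 regions of the optimal lists given above. Unlike those, it had one of the 6 motifs within 100 bp of its summit, the only posterior Hoxa region of any list that did. It held a caudal match 1 bp from the summit, and an AP-1 and a HOX-PBX match that share 7 bases. The matches are in capitals, plus strand of GRCm38.
Hoxa13 at chr6:52275640-52275732: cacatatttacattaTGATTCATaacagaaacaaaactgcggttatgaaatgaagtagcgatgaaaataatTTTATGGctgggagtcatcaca
A match is a description of the letters, and binding was not measured. Over all regions of the conservative deletion list the shares were 37.9% for AP-1, 7.60% for HOX-PBX and 3.09% for the caudal motif. No share was taken over the optimal list.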

How the results depend on the processing

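Of 60 alternative values for the region counts, shares and motif matches, 47 stayed within 1.5 times the main count or within its exact interval. With an IDR score of at least 830 the parent regions fell from 5 to 3, and Hoxa9 then had 0 parent regions and 2 deletion-only regions. With lists of equal length (the strongest regions of the longer one kept, ranked on either measure of enrichment), the deletion regions fell from 8 to 4, the parent-only regions rose from 0 to 2 and the deletion-only regions fell from 3 to 1, at Hoxa11. The parent-only regions were 1 at Hoxa9 and 1 at Hoxa10. Hoxa9 then had 1 parent region and 0 deletion regions, the reverse of its order in the main lists. With TSSs of genes of every biotype the counts were 3 parent, 4 deletion and 1 deletion-only region, at Hoxa9, as a TSS of another gene was then nearer to the rest. Parent-only regions numbered 1 with a reciprocal overlap of 50% and 1 with absence judged against the optimal list, the Hoxa10 exon in both. With optimal lists 1 region held a motif in place of 0. For the 5 shared pairs, added after the data were seen, no alternative changed the sign; centring on pairs within 1 kb of a TSS moved the Hoxa13 promoter from −0.95 to −0.48 and the distal region from −1.29 to −0.82. No paired analysis was possible because the lists pool the 3 cultures of each genotype, and for the same reason no culture could be left out. Depth, taken from the lowest local background, differed 1.98 times between the lists, and its part in the presence or absence of weak regions was not tested.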

Other observations

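Beyond Hoxa13 the next gene is Evx1, an even-skipped type homeobox gene that lies next to the posterior end of the cluster. It had 3 regions within 50 kb in the parent list, 1 of them parent-only, and 6 in the deletion list, 4 of them deletion-only. Over all regions at most 50 kb from a TSS, the shares in 1 list alone were 45.0% and 53.0%. The 2 shared regions of Evx1, 7.41 kb upstream of and 475 bp inside the TSS, were at 2.44 and 1.97 relative to all pairs, higher in the deletion line. The Hoxa13 pairs, at −0.71 and −1.05, therefore lay between neighbours on both sides that were higher in the deletion line: Hoxa10 at 1.60 and Evx1 at 2.44. The local background relative to all pairs was also lower at Hoxa13 (−0.31 and −0.12) than at the Hoxa10 promoter (0.89) and at Evx1 (1.16 and 1.14). Within Hoxa13 the order differed: background was lower at the promoter, and summit reads were lower at the distal region. The pairs are single pooled values, and the difference between neighbours was not tested.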
